A study of Mus musculus with 19 samples.

Results

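Corticospinal motor neurons (CSMN) and callosal projection neurons (CPN) of the mouse cerebral cortex were compared at postnatal day 6 (P6). The comparison takes the 2 arrays that the labels assign to CSMN at P6 and the 2 assigned to CPN at P6, so it rests on 4 of the 19 arrays of the study. All mice were C57BL/6, and the labels give no allele, drug or other treatment. Both types had been filled with green fluorescent microspheres carried back along the axon from an injection in its target field, with the sensorimotor cortex named for both. The dissociated cells were sorted by fluorescence (FACS) straight into RNAlater, a solution that preserves RNA, and their RNA was purified with a StrataPrep kit. Before hybridisation it went through 2 rounds of linear amplification by in vitro transcription, and the product was read on Affymetrix Mouse Genome 430 2.0 arrays. The labels describe replicates as independent biological collections, and the number of animals behind each collection is not given in the sources used here. The remaining arrays, of the same types at embryonic day 18 (E18), P3 and P14 and of corticotectal neurons at P14, served to estimate the spread and to place the P6 difference among the stages.

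CSMN are large pyramidal neurons of layer V whose axons run through the internal capsule and the brainstem to the spinal cord, where they drive voluntary movement. CPN lie mostly in the upper layers, with some in layer V, and send their axons through the corpus callosum to the other hemisphere. Both are glutamatergic neurons born from the same dorsal progenitors, and their identities are set by transcription factors that act after the last division, with Fezf2 and Bcl11b (also called Ctip2) on the corticospinal side. In the first postnatal week corticospinal axons grow down the spinal cord while callosal axons invade the opposite cortex and many of them are withdrawn.

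The values are log2 expression as the authors deposited them, after their RMA normalization, and a gene is represented by its brightest probe set. The medians of all arrays lay between 6.42 and 6.62 and their 75th percentiles between 7.85 and 8.26. The deposited values carry no detection calls, so a fold is given only where all 4 P6 arrays lay above 6.51, the highest median among them, and below that level background enters into how large a difference appears. The arrays of the CSMN pair differed little from each other (SD of the difference over genes 0.184, r = 0.996 across genes), and those of the CPN pair differed more (SD 0.432, r = 0.979). CPN replicate 2 lay above CPN replicate 1 in 40.6% of genes. All 4 P6 arrays carried high levels of neuronal transcripts. The neuronal splicing factor Rbfox3 (NeuN) stood at 13.03 and 12.90 in CSMN and at 13.00 and 12.89 in CPN, and all 16 pan-neuronal and excitatory markers lay above the array's own median on every P6 array. Slc17a7, the vesicular glutamate transporter VGLUT1 of mature cortical neurons, stood at 7.68 and 7.87 in CSMN and 7.80 and 7.59 in CPN, with overlapping groups.

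At P6, 195 of 18193 genes (1.07%) passed the limma test at an adjusted p under 0.05, 122 higher in CSMN (0.671%) and 73 lower (0.401%). The genes higher in CSMN were led by Crym, Ermn and Bcl11b, and those lower by Cux2, Lpl and Adamts3. Of the 195 genes, 189 differed by at least 1 on the log2 scale. The differences of the higher genes ranged from 0.88 to 6.50 with a median of 1.76, and the sizes for the lower genes from 0.83 to 4.16 with a median of 1.85. In all 195 both arrays of one type lay beyond both arrays of the other, a separation that 8078 genes showed (44.4%), so with 2 arrays a type it says little on its own. The median difference of all genes was 0.0418. With 2 arrays against 2, an exact two-sided permutation test of a single gene cannot go below p = 0.333, and the calls therefore rest on a spread shared over all groups. The RNA of many sorted cells was pooled, so a lower value can stand for less RNA per cell or for fewer cells that carry the transcript, which cannot be told apart.

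Single arrays moved the count. Without CPN replicate 1 it was 88 (50 higher and 38 lower), without CPN replicate 2 it was 117 (69 and 48), and without CSMN replicate 1 or 2 it was 53 or 66. It was 383 without either CSMN P14 array, which enters only through the shared spread. Among 71 genes named for P6 that passed, 28 stayed past the test whichever P6 array was left out. These were Crym, Bcl11b, Fezf2, Ermn, Ankrd34b, Npr3, Pcp4, Tcerg1l, Amdhd1, Rasgrf1, Tmem163, Foxp2, Oma1, Neto1, Cacna2d3 and Sema3c among those higher in CSMN. Those lower were Lpl, Adamts3, Cpne4, Gpr6, Plxnd1, Kit, Unc5d, Slc17a6, Dcc, Kcnh5, Gria4 and Spock3. The other 43 kept their sign and lost the call without at least 1 P6 array. With the mean of all probe sets in place of the brightest, 20 of the 71 shrank by over 1.5 times and 6 lost the call, namely Adcyap1, Cux1, Hlf, Igfbp4, Lin7b and Ryr2. Quantile or cyclic loess normalization ended the call of Crim1, Diaph3, Hspb3, Kcnc2, Lum, Opn3 and Pfn1. With the P6 groups alone 39 lost it, Bcl11b and Cux2 among them (adjusted p = 0.0529 for each).

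Crym encodes mu-crystallin, a cytosolic protein that binds thyroid hormone, and it had the largest difference at P6. It stood at 12.51 and 12.50 in the CSMN arrays and at 5.24 and 6.77 in the CPN arrays. The CSMN values were near the top of the array's range and nearly equal, whereas CPN replicate 1 lay below the array medians. The difference was 6.50 ± 0.47 (SE of the model, adjusted p = 1.84e-05). Among 19 measured genes of thyroid hormone and retinoid handling, Crym alone passed (5.26%, against 1.07% of all genes, median 0.07). The receptor gene Thrb stood at 5.94 and 5.92 in CSMN and 6.14 and 6.08 in CPN (difference -0.18, adjusted p = 1), and the nuclear receptor gene Rora had a difference of -1.46 (adjusted p = 0.0628).

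Among the factors of subcerebral and layer V neurons, Bcl11b, Fezf2, Ldb2 and Tox were higher in CSMN and Hlf was lower. Bcl11b, a zinc finger factor needed for corticospinal axons to reach the cord, stood at 12.47 and 12.36 in CSMN and at 7.19 and 8.36 in CPN. All of its 4 probe sets passed, with differences from 3.17 to 5.66, and the brightest gave 24.9-fold (4.64 ± 0.42, adjusted p = 5.62e-05). Fezf2, which specifies subcerebral neurons upstream of Bcl11b, stood at 10.88 and 10.76 in CSMN and at 8.45 and 8.0 in CPN, 6.04-fold higher (2.59 ± 0.28, adjusted p = 0.000215). For Fezf2, CPN still stood well above the array medians. Ldb2, a cofactor of LIM-domain proteins, was 2.48-fold higher (1.31 ± 0.23, adjusted p = 0.0115), and Tox, a high mobility group protein, was higher by 1.39 ± 0.28 (adjusted p = 0.0265). Among the 10 measured subcerebral and layer V factors 4 were higher and 1 lower, with a list median of 0.955. The exception was Hlf, a PAR bZIP factor, at 8.56 and 8.44 in CSMN and 9.69 and 9.55 in CPN (-1.12 ± 0.25, adjusted p = 0.0437). Sox5, which controls the timing of deep-layer neuron production, had a difference of 1.12 that missed the threshold (adjusted p = 0.0859). Bcl11b and Fezf2 were past the test without any 1 of the P6 arrays, and without CPN replicate 2 or either CSMN array they were the 2 of this list that were.

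Among the factors of upper-layer and callosal neurons, Cux2, Cux1, Lhx2, Lmo4 and Zbtb20 were lower in CSMN. Cux2, a homeobox factor that shapes dendrites and spines of upper-layer neurons, had the largest difference among the lower genes. It stood at 7.18 and 6.25 in CSMN and at 11.13 and 10.61 in CPN (-4.16 ± 0.69, adjusted p = 0.00659). The groups lay far apart, although 1 of the 3 Cux2 probe sets passed and the others gave -1.11 and 0.17. Its relative Cux1 was 2.61-fold lower (-1.39 ± 0.30, adjusted p = 0.0416), with CPN at 10.61 and 9.62, and the difference was -0.89 without CPN replicate 1 and -0.80 with the mean of its probe sets (adjusted p = 0.0542). Lhx2, a LIM homeobox gene of cortical identity, stood at 6.80 and 6.93 in CSMN and at 9.51 and 9.95 in CPN, 7.29-fold lower (-2.87 ± 0.59, adjusted p = 0.0294). Lmo4, a LIM-only cofactor that marks callosal neurons, stood at 8.04 and 7.87 in CSMN and at 9.88 and 9.72 in CPN, 3.60-fold lower (-1.85 ± 0.33, adjusted p = 0.0117). The zinc finger gene Zbtb20 was 2.52-fold lower (-1.33 ± 0.28, adjusted p = 0.0359). In all 5 of 13 measured factors were lower (38.5%, against 1.07% of all genes) and 0 higher, with a median of -1.25. Cited2 had a difference of -1.82 (adjusted p = 0.125) with CPN arrays at 9.81 and 8.58, and Nfib one of 1.19 (adjusted p = 0.0563) in the other direction. The count of lower factors was 0 without CPN replicate 1, 2 without CPN replicate 2, 1 without CSMN replicate 1 and 0 without CSMN replicate 2, while the median stayed between -0.89 and -1.27.

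Genes of layer VI and the subplate did not follow one direction, with 2 of 17 higher, 1 lower and a median of 0.02. The share past the test was 17.6%, against 1.07% of all genes. Foxp2, a forkhead factor of corticothalamic neurons, stood at 10.23 and 9.79 in CSMN and at 7.29 and 7.15 in CPN, 6.94-fold higher (2.79 ± 0.31, adjusted p = 0.000329). Its 6 probe sets ran from -0.08 to 3.86 and 3 of them passed. Nfia was 2.72-fold higher (1.44 ± 0.22, adjusted p = 0.00352). The neurotensin receptor gene Ntsr1, a marker of corticothalamic cells, was 2.81-fold lower (-1.49 ± 0.31, adjusted p = 0.0325), with 7.98 and 7.95 in CSMN and 9.23 and 9.68 in CPN. Among the other members Tle4 (1.68, adjusted p = 0.0785) and Tbr1 (-1.16, adjusted p = 0.734) had differences of opposite sign that did not pass.

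Among 17 measured genes of cortical area patterning 4 were lower in CSMN (23.5%, against 1.07% of all genes) and 0 higher (median -0.418). Besides Lhx2 and Lmo4 these were Nr2f1 and Tenm3. Nr2f1, the orphan nuclear receptor COUP-TFI that promotes sensory over motor area identity, stood at 8.30 and 8.78 in CSMN and at 11.36 and 10.49 in CPN, 5.22-fold lower (-2.38 ± 0.40, adjusted p = 0.00747). The adhesion gene Tenm3 was 2.54-fold lower (-1.34 ± 0.30, adjusted p = 0.0473). Rorb, a layer IV and sensory area factor, had a difference of -1.25 (adjusted p = 0.461). The list count was 0 or 1 without any 1 of the P6 arrays.

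**Figure D1:**
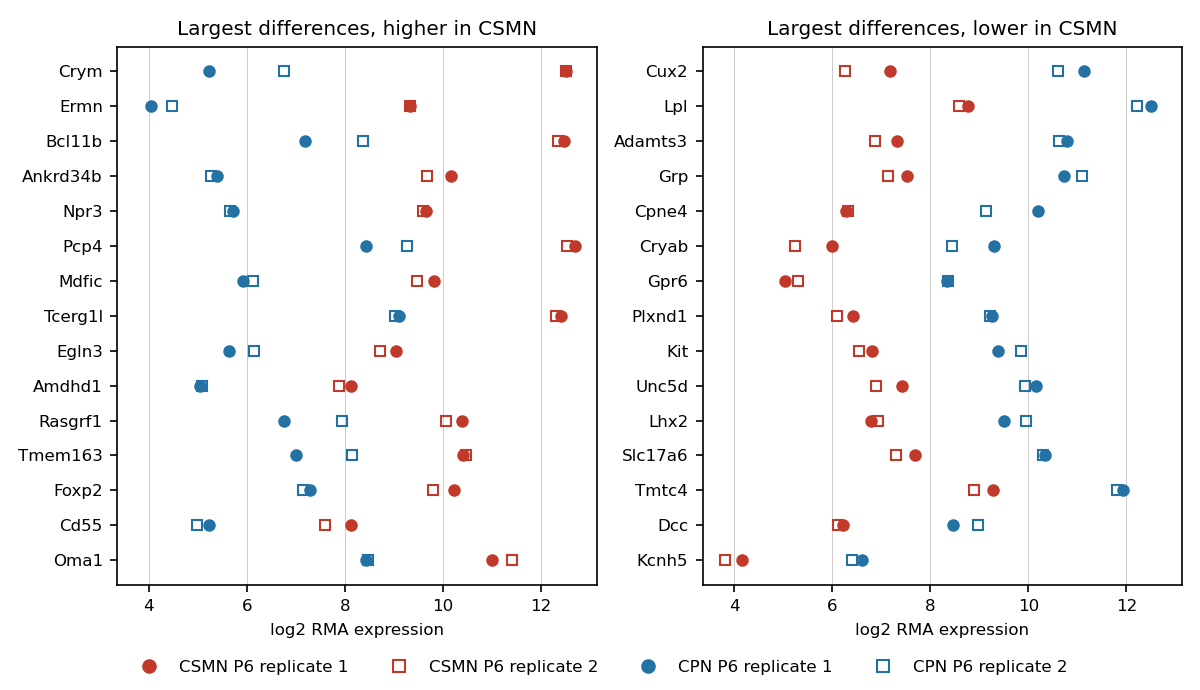
log2 expression on the 4 P6 arrays (horizontal axis) of the 15 genes with the largest differences in each direction among those past the test, CSMN in red and CPN in blue, replicate 1 as circles and replicate 2 as open squares. The CSMN and CPN points do not overlap for any of these genes, and the widest gap is that of Crym, at 12.51 and 12.50 against 5.24 and 6.77.

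The other leading genes higher in CSMN belong to no common pathway by name. Ankrd34b, an ankyrin repeat gene, stood at 10.16 and 9.67 in CSMN and at 5.39 and 5.27 in CPN (4.58 ± 0.39, adjusted p = 4.1e-05). Npr3, the clearance receptor of natriuretic peptides, stood at 9.66 and 9.59 in CSMN and at 5.71 and 5.67 in CPN (3.94 ± 0.41, adjusted p = 0.000171), and 1 of its 3 probe sets passed. Both genes lay below the array medians in CPN on both arrays, so their sizes depend on background. Tcerg1l, a relative of a transcription elongation regulator, was bright in both types, at 12.40 and 12.31 in CSMN and 9.11 and 9.03 in CPN, 9.74-fold higher (3.28 ± 0.25, adjusted p = 1.84e-05). Oma1, a protease of the inner mitochondrial membrane, was 6.73-fold higher (2.75 ± 0.25, adjusted p = 5.62e-05). Rasgrf1, a calcium-responsive exchange factor for Ras, was 7.35-fold higher (2.88 ± 0.30, adjusted p = 0.00018). Of its 3 probe sets 2 passed, and the other gave 0.55. Tmem163, a zinc transporter of vesicles, was 7.33-fold higher (2.87 ± 0.40, adjusted p = 0.00194). The remaining genes of the 15 were Mdfic (3.62), Egln3, an oxygen-sensing prolyl hydroxylase (2.99), Amdhd1, an enzyme of histidine breakdown (2.93), and Cd55, which restrains complement (2.76). All 4 lay below the array medians in CPN on both arrays. Egln3 passed with 1 of its 2 probe sets and Cd55 with 1 of its 3.

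Lpl, Kit, Tmtc4 and Cryab were among the genes with the largest differences in the other direction. Lpl, lipoprotein lipase, stood at 8.77 and 8.58 in CSMN and at 12.50 and 12.22 in CPN, 12.9-fold lower (-3.69 ± 0.44, adjusted p = 0.00053), and both of its probe sets passed. Lpl alone passed among 22 measured genes of cholesterol and lipid metabolism (4.55%, against 1.07% of all genes, median -0.10). In that list Far2, a fatty acyl reductase, had a difference of 1.71 (adjusted p = 0.183). Kit, the receptor of stem cell factor, stood at 6.81 and 6.55 in CSMN and at 9.39 and 9.85 in CPN, 7.66-fold lower (-2.94 ± 0.35, adjusted p = 0.000518), with its other probe set at -0.34. Tmtc4, a protein of the endoplasmic reticulum, was 6.85-fold lower (-2.78 ± 0.42, adjusted p = 0.00352). Cryab, the small heat shock protein alpha-B-crystallin, stood at 6.00 and 5.24 in CSMN and at 9.30 and 8.45 in CPN (-3.26 ± 0.61, adjusted p = 0.0142). Of its 3 probe sets 2 passed, and the other gave 0.08. Another small heat shock gene, Hspb3, was 3.11-fold lower (-1.63 ± 0.35, adjusted p = 0.0358). These 2 of 21 measured chaperone and stress genes passed (9.52%, median 0.05).

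**Figure D2:**
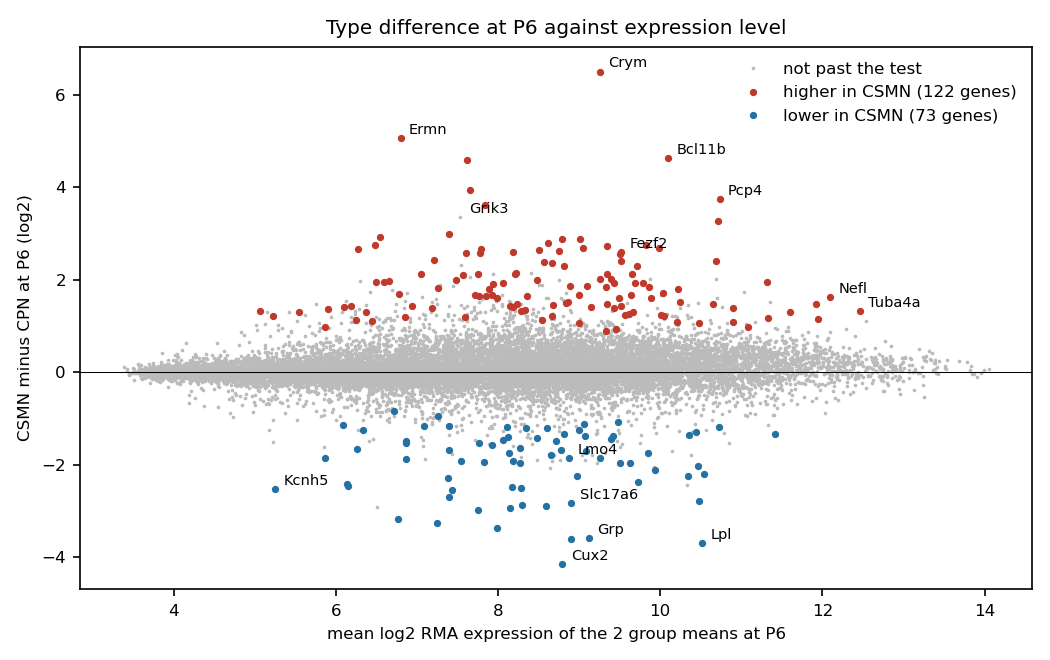
The difference between CSMN and CPN at P6 (log2, vertical axis) against the mean log2 expression of both groups (horizontal axis), 1 point per gene, with the 122 higher genes in red and the 73 lower genes in blue. Genes past the test lie across the range of levels from about 5 to 12, and Grik3, at 3.36, has a large difference and did not pass.

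The stretch of 250 bases before the transcription start was taken for each gene from RefSeq (GRCm38.p6) where the table held it, which was so for 94 of the 122 higher and 58 of the 73 lower genes. Motifs of 6 bases were searched on both strands, namely the TATA box (TATAAA), a homeodomain core (TAATTA), the core bound by factors of the Cut family (ATCGAT) and a nuclear receptor half-site (AGGTCA), none of which is contained in another. TAATTA and ATCGAT read the same on both strands. TATAAA was found in 8.33% of the promoters of higher genes, 6.41% of those of lower genes, 8.81% of those of all measured genes and 12.4% of all promoters. TAATTA was found in 1.67%, 3.85%, 3.2% and 4.84%, and AGGTCA in 10%, 8.97%, 12.5% and 14.0%, in the same order. ATCGAT was found in 0 of 120 promoters of higher genes, in 1.28% of those of lower genes, in 0.723% of those of measured genes and in 0.728% of all. The shares of called genes rest on 0 to 12 promoters with a match, and no difference between them was tested. The median GC content was 60.4% for higher and 62.8% for lower genes against 57.6% for all measured genes and 52.4% for all promoters. A match is a description of the letters and not a site, and no match says only that the letters are not in this window. Of the 30 genes with the largest differences, 23 had a promoter in the table, and not every chromosome was drawn on for printing. The promoters of 3 of these genes with a single start and a match are shown, 5′ to 3′ on the strand of the gene, with the match in capitals. They belong to Pcp4 (chr16:96467356-96467605, plus strand, AGGTCA on the opposite strand, 164 bases before the start), Tmem163 (chr1:127678022-127678271, minus strand, TAATTA, 36 bases before the start) and Plxnd1 (chr6:115995006-115995255, minus strand, AGGTCA on the opposite strand, 103 bases before the start).
Pcp4: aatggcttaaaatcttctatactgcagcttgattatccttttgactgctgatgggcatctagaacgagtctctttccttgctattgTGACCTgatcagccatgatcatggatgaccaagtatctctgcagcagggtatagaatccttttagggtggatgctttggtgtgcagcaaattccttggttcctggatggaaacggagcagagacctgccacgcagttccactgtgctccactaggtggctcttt
Tmem163: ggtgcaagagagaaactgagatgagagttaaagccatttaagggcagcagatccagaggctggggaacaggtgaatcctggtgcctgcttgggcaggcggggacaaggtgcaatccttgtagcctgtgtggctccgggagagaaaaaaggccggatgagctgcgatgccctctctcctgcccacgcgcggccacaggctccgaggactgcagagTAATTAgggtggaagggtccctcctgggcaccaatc
Plxnd1: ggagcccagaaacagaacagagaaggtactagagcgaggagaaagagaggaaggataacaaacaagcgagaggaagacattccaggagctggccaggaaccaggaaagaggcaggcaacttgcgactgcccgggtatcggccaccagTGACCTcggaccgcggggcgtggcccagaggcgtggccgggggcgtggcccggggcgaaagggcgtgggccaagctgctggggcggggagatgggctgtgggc

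Genes that earlier array screens of purified cortical neurons had named lay on the side those screens gave. Of 15 genes named for corticospinal neurons 10 were higher (66.7%, against 1.07% of all genes) and 0 lower (median 1.43), and all 15 differences were positive. In the callosal list of 17 genes, 10 were lower (58.8%) and 0 higher (median -1.90), and all 17 differences were negative. The screens used neurons of these kinds from the same line of study, so neither list is independent evidence of its direction. Without any 1 of the P6 arrays the first count was 5 or 6 (6 without CPN replicate 2), and the second was 5, 6, 4 and 3 without CPN replicate 1, CPN replicate 2, CSMN replicate 1 and CSMN replicate 2.

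Pcp4, a small protein that modulates calmodulin, stood at 12.69 and 12.53 in CSMN and at 8.44 and 9.27 in CPN, 13.5-fold higher (3.75 ± 0.32, adjusted p = 4.1e-05). Its promoter is the first of those printed above. Other corticospinal screen genes with smaller differences were Crim1, a transmembrane BMP-binding protein (2.03 ± 0.43, adjusted p = 0.035, and 1.20 without CPN replicate 1), and the formin gene Diaph3 (1.43 ± 0.26, adjusted p = 0.0124). The extraocular opsin gene Opn3 was 1.92-fold higher (0.94 ± 0.21, adjusted p = 0.0421). S100a10, an annexin partner that labels corticospinal neurons, stood at 12.11 and 12.13 in CSMN and at 10.62 and 10.57 in CPN, and its difference of 1.53 missed the threshold (adjusted p = 0.0538). Cdh22 (1.17, adjusted p = 0.0785) and Cdh13 (1.04, adjusted p = 0.51) did not pass.

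Among the callosal screen genes, Nectin3, a cell adhesion molecule, stood at 9.20 and 9.24 in CSMN and at 11.44 and 11.48 in CPN, 4.72-fold lower (-2.24 ± 0.47, adjusted p = 0.0325). The Wnt modulator Dkk3 was 3.62-fold lower (-1.86 ± 0.34, adjusted p = 0.0132), and the methyltransferase gene Nnmt 3.83-fold lower (-1.94 ± 0.39, adjusted p = 0.0233). Cpne4, a calcium-dependent membrane-binding copine, stood at 6.27 and 6.32 in CSMN and at 10.20 and 9.14 in CPN (-3.38 ± 0.45, adjusted p = 0.00119), with its other probe set at -0.24. Cav1, the caveolin of membrane pits, had a difference of -1.95 (adjusted p = 0.0697), Inhba one of -1.26 (adjusted p = 0.102) and Btg1 one of -1.35 (adjusted p = 0.477).

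Receptors for axon guidance cues separated the types at single members. Dcc, the receptor through which netrin attracts axons, stood at 6.22 and 6.12 in CSMN and at 8.46 and 8.97 in CPN (-2.54 ± 0.37, adjusted p = 0.00237). Of its 3 probe sets 2 passed, and the other gave 0.03. Unc5d, a relative of the repulsive netrin receptors, stood at 7.42 and 6.89 in CSMN and at 10.15 and 9.93 in CPN, 7.39-fold lower (-2.89 ± 0.29, adjusted p = 0.000144). Rgma, a repulsive guidance molecule that binds neogenin, was 4.34-fold higher (2.12 ± 0.40, adjusted p = 0.0162), with 10.26 and 10.56 in CSMN and 8.50 and 8.08 in CPN. These were 1 higher and 2 lower of 20 measured netrin, repulsive guidance and Slit genes (15.0%, against 1.07% of all genes, median 0.06). The Slit receptor gene Robo1 had a difference of 1.62 (adjusted p = 0.305). Rgma lost the call whichever P6 array was left out.

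Of 30 semaphorin, plexin and neuropilin genes 1 was higher and 1 lower (6.67%, against 1.07% of all genes, median -0.28). Sema3c, a secreted semaphorin that attracts some cortical axons, stood at 10.81 and 10.93 in CSMN and at 8.29 and 8.83 in CPN, 4.96-fold higher (2.31 ± 0.27, adjusted p = 0.000496). Plxnd1, a plexin that serves as a semaphorin receptor, stood at 6.43 and 6.11 in CSMN and at 9.26 and 9.21 in CPN (-2.97 ± 0.33, adjusted p = 0.00029), and its promoter is printed above. A ligand was thus higher and a receptor lower, while Sema3a had a difference of -0.91 (adjusted p = 0.448). Epha3, a receptor for membrane-bound ephrins, alone passed among 21 Eph receptor and ephrin genes (4.76%, median -0.04). It stood at 6.28 and 6.21 in CSMN and at 8.24 and 8.82 in CPN (-2.29 ± 0.44, adjusted p = 0.0166), and it did not pass with the probe set that is brightest at P6 (-1.23, adjusted p = 0.0705). Ephb6 (-2.06, adjusted p = 0.0899), Epha4 (-1.25, adjusted p = 0.159) and Ephb1 (1.15, adjusted p = 0.0697) did not pass.

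Adhesion and extracellular matrix genes passed at 1 or 2 members a list. These were 4.0% of the cadherin, 5.0% of the contactin and 6.45% of the matrix list, against 1.07% of all genes. Cdh10, a type II cadherin, was 3.36-fold lower (-1.75 ± 0.27, adjusted p = 0.00378), with 9.10 and 8.85 in CSMN and 10.80 and 10.63 in CPN, and it was 1 of 25 measured cadherin and protocadherin genes (median -0.09). Cdh9 had a difference of -1.47 (adjusted p = 0.0588). Tenm3, named above, alone passed among 20 contactin, teneurin and L1 family genes (median 0.01), where Cntn4 (1.35, adjusted p = 0.419), Cntn6 (1.13, adjusted p = 0.265) and Tenm1 (-1.32, adjusted p = 0.259) did not. In the extracellular matrix list 2 of 31 were lower and 0 higher (median -0.05). Adamts3, a procollagen-cleaving protease, stood at 7.33 and 6.87 in CSMN and at 10.79 and 10.63 in CPN, 12.2-fold lower (-3.61 ± 0.42, adjusted p = 0.000496), and its other probe set gave -0.27. Spock3, a testican proteoglycan, stood at 4.88 and 5.0 in CSMN and at 7.0 and 7.69 in CPN (-2.41 ± 0.33, adjusted p = 0.00154).

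Nefl and Nefm, the light and medium neurofilament subunits of large axons, were higher in CSMN, and the other subunits measured did not pass. Nefl stood at 13.14 and 12.69 in CSMN and at 11.19 and 11.38 in CPN, 3.11-fold higher (1.63 ± 0.27, adjusted p = 0.00659). Nefm was 3.47-fold higher (1.80 ± 0.26, adjusted p = 0.00256), with 11.37 and 10.87 in CSMN and 9.59 and 9.06 in CPN. The tubulin gene Tuba4a was 2.49-fold higher (1.32 ± 0.19, adjusted p = 0.0021). These were 3 of 27 neurofilament, tubulin and axon growth genes (11.1%, against 1.07% of all genes), with 0 lower and a median of 0.06. Nefh, the heavy subunit, stood at 8.82 and 7.92 in CSMN and at 6.34 and 6.69 in CPN, and its difference of 1.86 did not pass (adjusted p = 0.0866), nor did alpha-internexin, Ina (0.78, adjusted p = 0.106). None of the 3 passed without CSMN replicate 1.

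Glutamate signalling genes differed in both directions, with 2 of 28 measured higher, 3 lower and a median of -0.08. The share past the test was 17.9%, against 1.07% of all genes. Slc17a6, the vesicular transporter VGLUT2 that prevails early in life and in thalamic neurons, stood at 7.68 and 7.29 in CSMN and at 10.34 and 10.31 in CPN, 7.13-fold lower (-2.83 ± 0.40, adjusted p = 0.0021), and both of its probe sets passed. The AMPA receptor subunit gene Gria4 was 3.76-fold lower (-1.91 ± 0.27, adjusted p = 0.00231) and the metabotropic receptor gene Grm2 3.19-fold lower (-1.67 ± 0.27, adjusted p = 0.00524). Grin3a, an NMDA receptor subunit that lowers calcium entry, was 6.61-fold higher (2.72 ± 0.52, adjusted p = 0.0171), with 10.76 and 10.65 in CSMN and 7.10 and 8.86 in CPN. Neto1, an auxiliary subunit of kainate receptors, stood at 10.65 and 10.78 in CSMN and at 8.44 and 8.75 in CPN, 4.35-fold higher (2.12 ± 0.31, adjusted p = 0.00258). The kainate receptor gene Grik3 stood at 9.36 and 9.08 in CSMN and at 4.71 and 7.0 in CPN, and its difference of 3.36 did not pass (adjusted p = 0.0779), with the CPN arrays far apart. Grik2 (1.51, adjusted p = 0.0859) and Grik1 (-1.51, adjusted p = 0.0784) did not pass either. Of 12 measured GABA-A receptor and chloride transporter genes 0 passed (median 0.09), and Gabrd had a difference of 1.32 (adjusted p = 0.172).

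Among 47 potassium channel genes 1 was higher and 3 lower (8.51%, against 1.07% of all genes, median -0.11). Kcnh5, an ether-a-go-go channel, stood at 4.17 and 3.81 in CSMN and at 6.62 and 6.41 in CPN (-2.53 ± 0.30, adjusted p = 0.000496), a range in which background counts. Its relative Kcnh1 was 3.24-fold lower (-1.70 ± 0.31, adjusted p = 0.0126), and Kcnc2, a fast-spiking Kv3 channel, was lower by 1.24 on the log2 scale (SE 0.25, adjusted p = 0.0255). The channel-interacting protein gene Kcnip1 was higher by 2.58 ± 0.56 (adjusted p = 0.0394). Of 25 sodium, HCN and calcium channel genes 1 was higher and 1 lower (8.0%, median -0.02). Cacna2d3, an auxiliary calcium channel subunit, stood at 11.89 on both CSMN arrays and at 9.26 and 9.72 in CPN, 5.28-fold higher (2.40 ± 0.29, adjusted p = 0.000581). The ryanodine receptor gene Ryr2 was 2.38-fold lower (-1.25 ± 0.24, adjusted p = 0.0186), and with the mean of its probe sets it did not pass (-0.61, adjusted p = 0.0878). Of 28 calcium-binding and calmodulin-binding genes Pcp4 was higher and Cpne4 lower (7.14%, median 0.04). Calb1, calbindin, stood at 10.04 and 9.44 in CSMN and at 7.75 on both CPN arrays, with a difference of 1.99 that did not pass (adjusted p = 0.103).

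Among 27 neuropeptide and growth factor genes 2 were higher and 1 lower (11.1%, against 1.07% of all genes, median 0.02). Grp, gastrin-releasing peptide, stood at 7.52 and 7.14 in CSMN and at 10.72 and 11.10 in CPN, 12-fold lower (-3.58 ± 0.66, adjusted p = 0.0135). Cartpt, the precursor of CART peptides, stood at 9.62 and 9.35 in CSMN and at 6.49 and 7.28 in CPN (2.60 ± 0.47, adjusted p = 0.0113), and Adcyap1, the precursor of PACAP, was 2.45-fold higher (1.29 ± 0.25, adjusted p = 0.0168). Npy had a difference of -1.90 (adjusted p = 0.111). Of 32 peptide, amine and orphan receptor genes Npr3 was higher and 2 were lower (9.38%, median -0.03), Ntsr1 and Gpr6. Gpr6, an orphan receptor that raises cyclic AMP without a ligand, stood at 5.05 and 5.31 in CSMN and at 8.35 and 8.37 in CPN (-3.18 ± 0.39, adjusted p = 0.000581). Igfbp4, a binding protein for insulin-like growth factors, alone passed among 15 genes of that pathway (6.67%, median 0.02), 1.96-fold higher (0.97 ± 0.20, adjusted p = 0.0269). Of the 3 peptide genes, none passed without CPN replicate 1 or without either CSMN array.

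Differences of motor neuron disease genes ran from -0.114 to 1.136, and 22 of 26 were positive. Over all genes the median was also positive, at 0.0418, and non-overlapping arrays had CSMN above in 27.8% and below in 16.6%. The list median was 0.079 with quantile and 0.053 with cyclic loess normalization. The share past the test was 3.85%, against 1.07% of all genes. Pfn1, profilin, alone passed among 26 measured (median 0.15), 2.20-fold higher (1.14 ± 0.24, adjusted p = 0.0345), and it did not pass after quantile or cyclic loess normalization. Sod1 stood at 12.17 and 12.22 in CSMN and at 12.06 and 11.43 in CPN (0.45, adjusted p = 1), and Cyp7b1, a gene of hereditary spastic paraplegia, had a difference of 0.97 (adjusted p = 0.497). Of 24 immediate early genes 0 passed (median 0.13), with Egr2 at 1.14 (adjusted p = 0.572) and Fosl2 at -1.02 (adjusted p = 0.531).

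**Figure D3:**
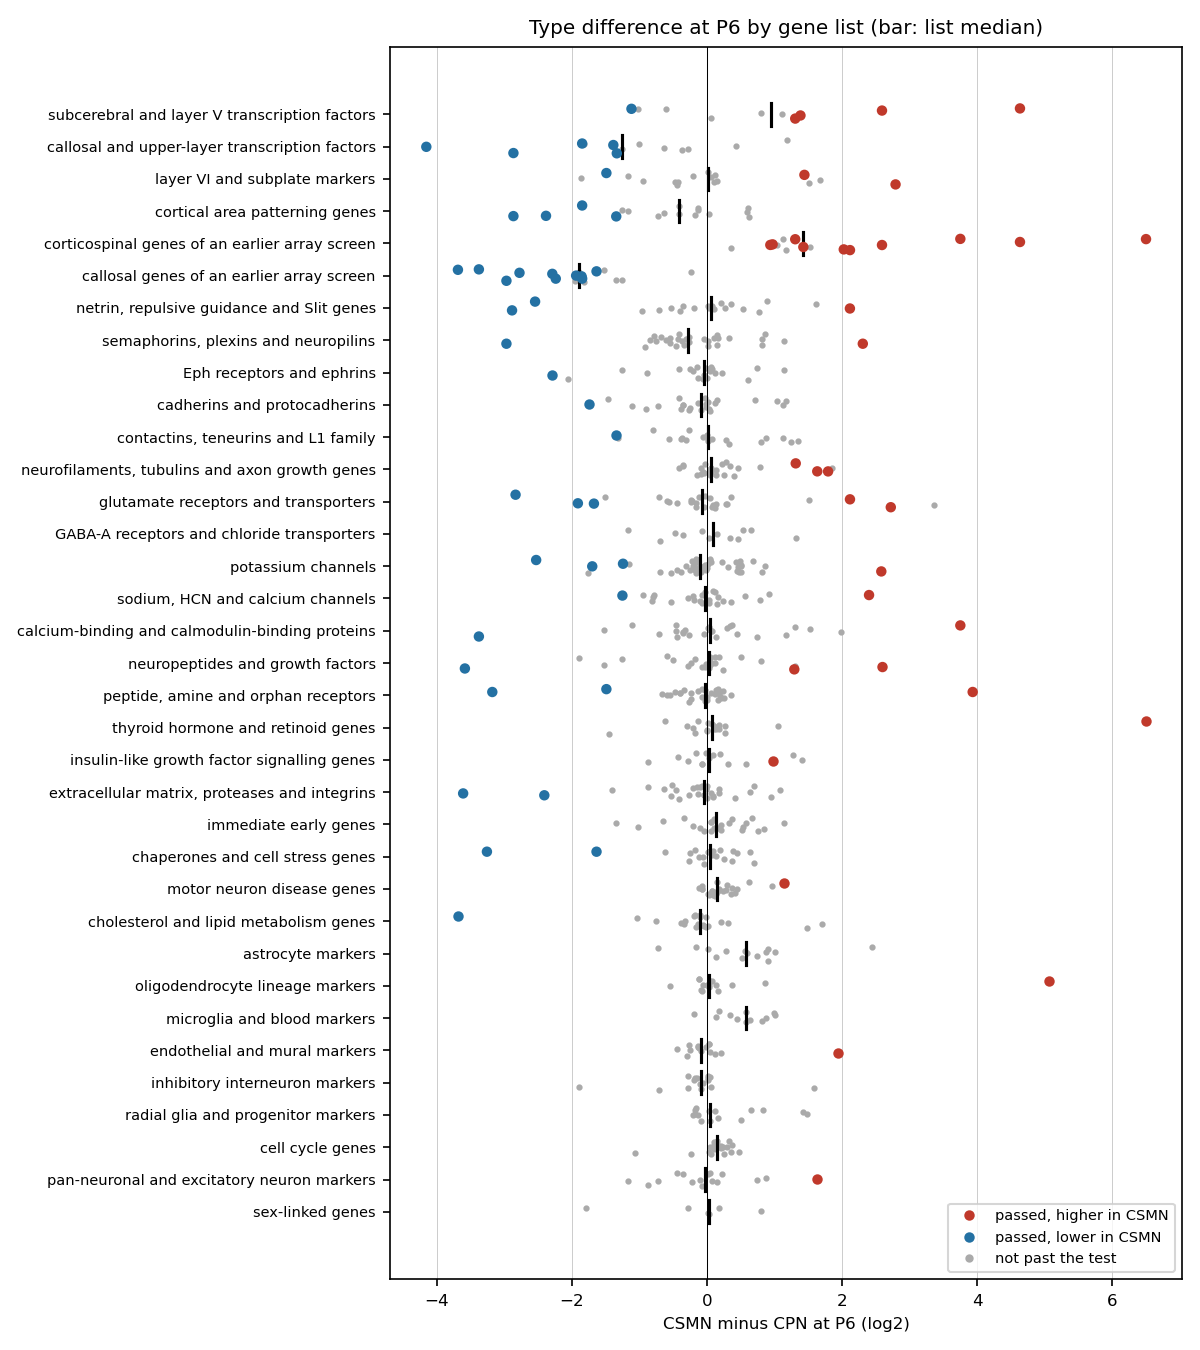
The difference between CSMN and CPN at P6 (log2, horizontal axis) of every measured gene of the 35 lists, 1 row per list, with genes past the test in red (higher in CSMN) or blue (lower), the others in grey and the list median as a bar. The screen lists lie wholly on one side of 0, with medians of 1.43 and -1.90, and most other medians lie close to the all-gene median of 0.0418.

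Markers of other cell types were measured on the same arrays. Of 14 astrocyte markers 0 passed. The median difference was 0.57, against 0.0418 over all genes, and 12 of 14 differences were positive. List medians were 7.61 and 7.46 on the CSMN arrays and 6.79 and 7.26 on the CPN arrays. Gja1, the astrocyte gap junction protein connexin 43, stood at 10.85 and 10.63 in CSMN and at 6.78 and 9.82 in CPN (2.44, adjusted p = 0.183), so CPN replicate 1 lay apart from the other 3 arrays. Without CPN replicate 2, 2 of the 14 passed, and with quantile or cyclic loess normalization 1 did. Sox2, a progenitor and glial factor, showed the same order, at 7.50 and 7.46 in CSMN and at 4.77 and 7.22 in CPN. Gfap and Aqp4 were nearly level, with Aqp4 at 7.61, 7.57, 7.63 and 7.52 on the 4 arrays. CPN replicate 2 lay above CPN replicate 1 for 11 of 14 astrocyte markers, 13 of 16 oligodendrocyte lineage markers and 14 of 15 endothelial and mural markers. Over all genes this held for 40.6%. Lists of neuronal genes showed the same order, such as 24 of 28 glutamate signalling and 23 of 27 neuropeptide and growth factor genes. Others showed the reverse, with 6 of 16 pan-neuronal markers and 3 of 24 immediate early genes higher on CPN replicate 2.

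Microglia and blood markers had a median difference of 0.58 with 0 of 12 past the test. Their list medians were 7.01 and 8.03 on CSMN replicates 1 and 2 and 6.80 and 7.13 on CPN replicates 1 and 2. The complement gene C1qb of microglia stood at 9.01 and 10.76 in CSMN and at 8.63 and 9.38 in CPN, and the median of the list was 0.10 without CSMN replicate 2 and 1.05 without CSMN replicate 1. Of 16 inhibitory interneuron markers, 15 radial glia and progenitor markers, 19 cell cycle genes and 6 sex-linked genes 0 passed, with medians of -0.09, 0.04, 0.15 and 0.03. Reln (1.59, adjusted p = 0.168) and the replication gene Mcm6 (-1.07, adjusted p = 0.401) were among those that did not. Somatostatin, Sst, stood at 7.40 and 7.13 in CSMN and at 6.49 and 8.39 in CPN, and the X-inactivation transcript Xist at 9.32 and 9.63 in CSMN and at 10.70 and 11.85 in CPN. Of the 16 pan-neuronal markers Nefl alone passed (6.25%, against 1.07% of all genes, median -0.03).

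One gene listed as an oligodendrocyte marker passed, Ermn, which encodes the cytoskeletal protein ermin. It stood at 9.34 and 9.33 in CSMN and at 4.05 and 4.48 in CPN (5.07 ± 0.50, adjusted p = 0.000108), and both of its probe sets passed. The other 15 measured markers of that lineage did not pass, and the list median was 0.03. This left 6.25% of the list past the test, against 1.07% of all genes. The myelin gene Mog stood at 4.07 and 3.77 in CSMN and at 3.73 and 3.79 in CPN, and Cldn11 between 3.94 and 4.06 on all 4 arrays. Olig1 stood at 8.60 and 8.31 in CSMN and at 6.55 and 9.62 in CPN, and the CPN array with 9.62 for Olig1 had 4.48 for Ermn. The part of this lineage in the Ermn difference was not tested. Among 15 endothelial and mural markers Lum, lumican, alone passed (1.95 ± 0.41, adjusted p = 0.0358, list median -0.09, 6.67% of the list). Pecam1 stood between 5.33 and 5.40 on all 4 arrays.

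Some of the genes past the test are known to be abundant in astrocytes, and 4 of them were picked after their values had been seen. The secreted protease Htra1 stood at 9.53 and 10.17 in CSMN and at 6.72 and 8.26 in CPN (2.36 ± 0.50, adjusted p = 0.035), and Fam107a at 8.14 and 8.71 against 5.34 and 6.63 (2.44 ± 0.44, adjusted p = 0.0117). Ndrg2 was 3.65-fold higher (1.87 ± 0.38, adjusted p = 0.0269), and Gprc5b was higher by 1.95 ± 0.42 (adjusted p = 0.0373). The part of the astrocyte markers above in these 4 differences was not tested. Of the 122 higher genes, 64 lay higher on CPN replicate 2 than on CPN replicate 1, an order that 40.6% of all genes showed.

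**Figure D4:**
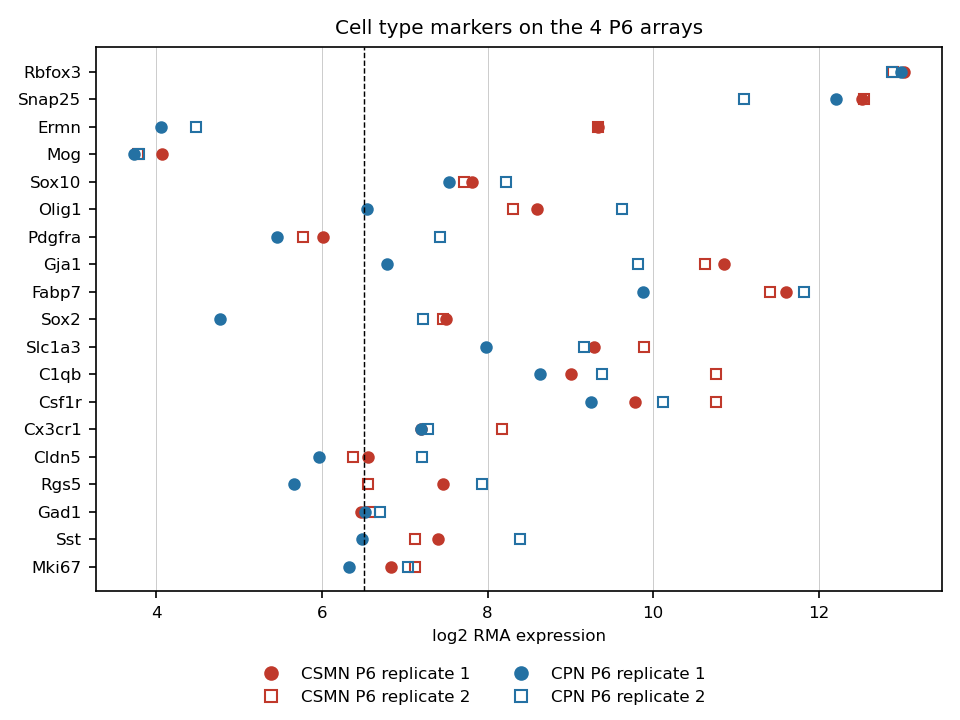
log2 expression (horizontal axis) of markers of neurons, glia, vessels, interneurons and dividing cells on the 4 P6 arrays, CSMN in red and CPN in blue, replicate 1 as circles and replicate 2 as open squares, with 6.51, the highest median of the 4 arrays, as a dashed line. Rbfox3 lies near 13 on every array, Ermn is high in CSMN alone, and CPN replicate 1 holds the lowest Gja1, at 6.78.

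The type difference at P6 was then set beside those at the other stages, which the same model gave. Of the 195 genes, 97 were called in the same direction at P3 (49.7% of the P6 genes and 61.0% of the 159 at P3), 65 at P14 (33.3%, and 25.7% of 253) and 59 at E18 (30.3%, and 2.51% of 2350). In each of these comparisons the share of all genes called was 0.874% at P3, 1.39% at P14 and 12.9% at E18. The model gave each gene one spread for all stages, so a gene with a small spread was favoured at each. The overlaps are therefore not independent of one another. At P3, P6 and P14 alike 19 genes were higher and 18 lower, and 50 higher and 20 lower genes of P6 were called in that direction at neither P3 nor P14. The median difference of the 122 higher genes was 1.76 at P6, 1.34 at P3, 0.75 at P14 and 0.33 at E18, and that of the 73 lower genes -1.85, -1.23, -1.31 and -0.73. The genes were chosen at P6, so larger values there follow from the choice. At E18 the test called 3.98% of all genes higher and 8.94% lower in CSMN, and 21 of the 122 higher genes of P6 were among the lower ones. Earlier results of these data showed progenitor transcripts in the CPN E18 arrays, so E18 was left out of the mean of stages used below. The part of these transcripts in the E18 calls was not tested.

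Single genes took different courses over the stages. Bcl11b in CPN stood at 9.71 and 11.15 at E18 and at 10.46 and 9.80 at P3, then at 7.19 and 8.36 at P6, with 8.40 and 8.65 at P14, while the CSMN arrays stayed between 11.35 and 12.62. Crym in CSMN stood at 8.28 and 8.37 at E18, between 11.45 and 11.62 at P3, near 12.5 at P6, and at 12.44 and 11.94 at P14. Its CPN arrays stood at 6.15 and 7.73 at E18, overlapping the 5.24 and 6.77 of P6, and at 9.40 and 9.03 at P14, so the difference was 1.38, 3.54, 6.50 and 2.98 at the 4 stages. Gpr6 in CPN was low at P3, with 5.42 and 5.22, and stood at 8.35 and 8.37 at P6, with 9.44 and 8.87 at P14, while every CSMN array lay at 6.05 or below. Whether such differences change with stage was tested as an interaction.

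Against P3, 0 genes passed (0%) and 228 had an unadjusted p under 0.05, with a smallest adjusted p of 0.399. Against the mean of P3 and P14 0 passed (0%) and 397 had an unadjusted p under 0.05, with a smallest adjusted p of 0.233. On simulated data with a log2 change of 2, the same model recovered 92% of changed genes for the P6 difference. It recovered 56% against P3, 54% against P14 and 63% against the mean, so a change of that size could go uncalled. The simulation gave all groups the same spread for a gene. The real pairs differed, with an SD of the difference of 0.184 for CSMN P6 and 0.917 for CSMN P14, so these shares need not hold for them. Array weights gave 61 genes against P3, and leaving out CPN P6 replicate 2 gave 11. Against the mean, leaving out CPN P6 replicate 2 or CSMN P14 replicate 1 gave 14 or 40.

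Against P14, 6 genes passed (0.033%), all with a more positive difference between CSMN and CPN at P6 than at P14. In each of them the CPN arrays stood higher at P14 than at P6. Pcp4 in CPN stood at 8.44 and 9.27 at P6 and at 12.69 and 12.52 at P14, and in CSMN at 12.69 and 12.53 and at 13.07 and 13.29. The difference was 3.75 at P6 and 0.58 at P14, a change of 3.18 ± 0.45 (adjusted p = 0.0234). Lin7b, a scaffold protein of synapses and cell junctions, was higher in CSMN at P6 (1.22) and lower at P14 (-0.82), with CPN at 9.45 and 9.44 at P6 and at 12.17 and 12.14 at P14 (change 2.04 ± 0.27, adjusted p = 0.0163). The groups exchanged their order on this brightest probe set. Of the 4 probe sets of Lin7b 2 passed at P6, and with the mean of all 4 the P6 difference was 0.55 (adjusted p = 0.101). Lin7b was the one gene of the 195 called in the opposite direction at P14. Tnnc1, the troponin C of slow muscle and heart, stood between 5.30 and 5.52 on all P6 arrays and at 9.51 and 9.21 in CPN at P14, against 5.70 and 6.55 in CSMN (change 3.13 ± 0.43, adjusted p = 0.0213).

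The remaining 3 were close to level or small in difference at P6. Strip2 stood between 3.83 and 4.26 on the P6 arrays and at 7.25 and 7.12 in CPN at P14 (change 2.90 ± 0.35, adjusted p = 0.0149). Hkdc1, a hexokinase relative, stood between 7.40 and 7.59 on the P6 arrays and at 9.36 and 9.49 in CPN at P14 (change 1.67 ± 0.25, adjusted p = 0.0378). Cd302, a lectin-like receptor, changed from 1.18 at P6 to -1.33 at P14 (change 2.51 ± 0.39, adjusted p = 0.0404). With the mean of all probe sets Hkdc1 (0.61, adjusted p = 0.596) and Cd302 (1.31, adjusted p = 0.0659) did not pass. The count of 6 was 0 with array weights, 0 with the 4 groups of P6 and P14 alone, 3932 without CSMN P14 replicate 1 and 10 without CSMN P14 replicate 2. It was 0 without CPN P6 replicate 1, CSMN P6 replicate 1 or either CPN P14 array, 12 without CPN P6 replicate 2, 2 without CSMN P6 replicate 2 and 3 without CSMN P3 replicate 3. The 2 CSMN P14 arrays lay far apart, with an SD of their difference over genes of 0.917.

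**Figure D5:**
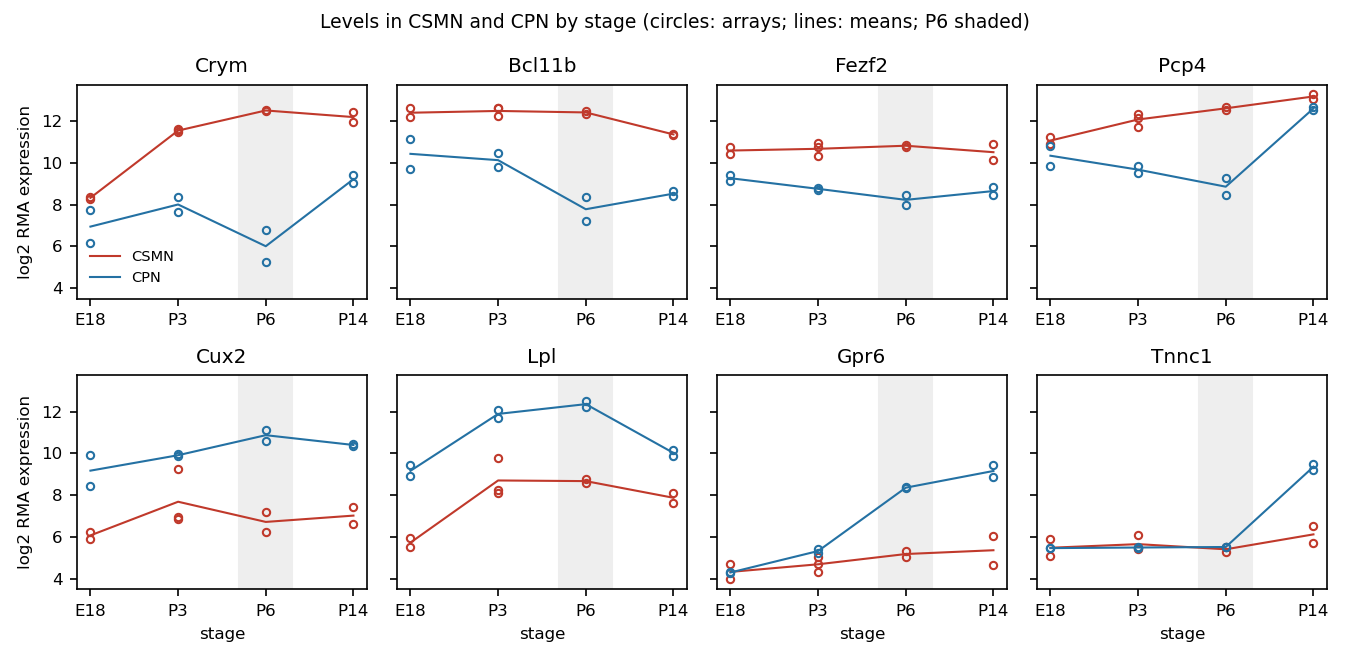
log2 expression (vertical axis) of 8 genes in CSMN (red) and CPN (blue) at E18, P3, P6 (shaded) and P14, with arrays as circles and group means joined by lines. Crym, Bcl11b and Cux2 keep separate groups at P6, Pcp4 in CPN moves from 8.44 and 9.27 at P6 to 12.69 and 12.52 at P14, and Tnnc1 differs between the types at P14 and not at P6.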

How the data were processed

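The 4 P6 arrays, CSMN and CPN with 2 replicates each, were analysed within the 19 arrays and 9 groups of the series. The authors deposited RMA values on the log2 scale for each probe set of the 430 2.0 array, per the submitters' processing notes. No version is given there, and the values (3.17 to 14.4) were used as deposited. The array holds 45101 probe sets, including 64 controls. A single symbol is annotated to 34945, more than 1 to 932 and no symbol to 9160. For each gene the brightest probe set was used, judged by the mean over all arrays among those with 1 symbol, which gave 18193 genes. Of these probe sets 34741 were found in RefSeq by identifier, which altered 0 symbols.

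A single limma model with a mean for each of the 9 groups (10 residual and 4.46 prior degrees of freedom) gave the type difference at P6 and its difference from those at P3, at P14 and from the mean of both. Tests were moderated and two-sided, with p-values adjusted by Benjamini-Hochberg across the 18193 genes and a threshold of 0.05, and SEs are those of the model. In simulated data of 18193 genes, 100 were changed by 1 and another 100 by 2 on the log2 scale, with the same spread in every group. Of those changed by 1, 34% were recovered at P6, 12% against P3, 3% against P14 and 13% against the mean. In the same order 5.26%, 5.56%, 3.39% and 6.17% of all calls were false. Precision is limited by how few arrays there are.

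The 35 lists hold 713 different genes, of which 660 were measured, and are described by counts and medians. The arrays, lists and rules were chosen with earlier results of these data known. Named genes are in each direction the 15 genes past the test with the largest differences (clone and model numbers passed over), list members past the test with up to 4 others per list, the 8 largest of each interaction, and Bcl11b, Fezf2, Crym, Lmo4, Cux2, Lhx2, Slc17a6 and Slc17a7. Promoters came from RefSeq (GRCm38.p6), and the 50 bases after the start were left out. The alternatives were quantile and cyclic loess normalization, genes above median brightness, other probe set choices, an intensity trend, array weights, smaller sets of groups, a minimum log2 difference of 1, a replicate block and leaving out each array. The tools were limma 3.58.1 in R 4.3.3 and Python 3.11.15 with pandas 2.3.3 and matplotlib 3.10.9.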

Additional observations from a re-analysis of the deposited data

Results flagged for a closer look

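In 6 genes the difference between CSMN and CPN at P6 was not that at P14 by the interaction test of limma, all with a more positive value at P6. The change was 3.18 for Pcp4, 3.13 for Tnnc1, 2.90 for Strip2, 2.51 for Cd302, 2.04 for Lin7b and 1.67 for Hkdc1, on the log2 scale. In all 6 both CPN arrays lay higher at P14 than both did at P6. None of the 6 passed the same test against P3.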

How the results depend on the processing

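The P6 count of 195 was between 169 and 248 under the other normalizations, filters, probe set choices and the intensity trend. It was 875 with array weights, 68 with the P6 groups alone, 383 without the CSMN P14 group and 581 with the P3 and P6 groups alone, and it ranged from 53 to 383 without single arrays. With array weights and without the CSMN P14 group all 195 genes were called in the same direction, and with the P6 groups alone 54 were. Of 71 genes followed, 0 reversed their sign under any alternative, 32 stayed past the test with the P6 groups alone and 31 to 45 without a single P6 array. Hkdc1 and Slc17a7, not past the test at P6, had differences near 0 that changed sign. Hkdc1 was at -0.016 with cyclic loess and from -0.063 to 0.134 without single arrays (-0.021 without CPN P6 replicate 2, -0.063 without CSMN P6 replicate 2). Slc17a7 ranged from -0.027 to 0.186 without single arrays (-0.027 and -0.014 without the same 2 arrays). The count against P3 was 61 with array weights and from 0 to 11 without single arrays, and that against the mean of P3 and P14 from 0 to 40. The count against P14 was 3 among genes above the median brightness, 14 with the mean of all probe sets, 0 with array weights, 0 with the groups compared alone and from 0 to 3932 without single arrays. The cause of these changes was not tested. Leaving out an array or group changes the shared spread and leaves fewer arrays to estimate it. The P6 count fell in some such settings and rose in others. With the mean of all probe sets, values of genes whose probe sets disagree shrank, such as Cux2 (-1.70), Npr3 (1.58) and Adamts3 (-1.94). Of 210 list medians recomputed under the 2 normalizations and without each P6 array, 41 changed sign, in 20 lists whose median was at most 0.132 in size, and 15 lists kept their sign. The replicate numbers did not pair the P6 arrays (correlation of deviations -0.095), and the replicate block gave 218 genes at P6 and 7 against P14. Where an array was left out, the lone array of its group was assumed to vary like the other groups. Without detection calls, differences of genes below the array medians depend on background, and 2 arrays a group limit what can be called.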

Other observations

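Genes past the test that belong to no list were picked here after their values had been seen. Among those higher in CSMN were Zfp703, a zinc finger factor (6.44-fold, 2.69 ± 0.41, adjusted p = 0.00352), Otx1, a homeobox gene of layer V (1.67 ± 0.31, adjusted p = 0.0154), and the secreted ligand gene Wnt5a (1.69 ± 0.21, adjusted p = 0.000581). The glycine receptor subunit gene Glra2 stood at 10.66 and 10.90 in CSMN and at 8.38 and 8.07 in CPN, 5.88-fold higher (adjusted p = 0.0103). Thy1, a surface glycoprotein of projection neurons, was 2.78-fold higher (1.48 ± 0.24, adjusted p = 0.00622).

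Among the lower genes picked in the same way were Esr1, Crhr1, Hsd11b1, Hs3st1 and Ptprk. Esr1, an estrogen receptor, was at 6.28 and 5.92 in CSMN and at 7.78 and 7.47 in CPN (-1.52 ± 0.24, adjusted p = 0.00378). Crhr1, the receptor of corticotropin-releasing hormone, was 2.70-fold lower (-1.43 ± 0.24, adjusted p = 0.00832), and Hsd11b1, which regenerates active glucocorticoid, 2.68-fold lower (-1.42 ± 0.27, adjusted p = 0.0163). Hs3st1, a heparan sulfate sulfotransferase, was 5.66-fold lower (-2.50 ± 0.25, adjusted p = 0.000117), and the receptor phosphatase gene Ptprk 4.08-fold lower (-2.03 ± 0.25, adjusted p = 0.00076). Of 10092 probe sets without a single symbol, which the gene tests left out, 11 passed a limma test, 3 higher and 8 lower in CSMN. That test was fitted to all probe sets except the controls, and its p-values were adjusted over all of them.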
